A study of Mus musculus with 6 samples.

Results

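The genes described here are a set of 39 macrophage and phagocyte genes, chosen by name, by a rule that uses no measured value, as they were measured in mouse dorsal root ganglion neurons after nerve injury. They comprise phagocyte receptors, leukocyte surface proteins, actin regulators, subunits of the phagocyte oxidase, antigen presentation genes and lysosomal genes. Of the 39 names, 38 were matched among 17022 gene names, and Cd68 was not analysed here. Lumbar 3, 4 and 5 ganglia of C57Bl/6 male mice, labelled both as adult and as 4 to 6 weeks old, were taken on the operated side 7 days after surgery. The crush group (3 libraries) had its sciatic nerve crushed for 10 seconds and the sham group (3 libraries) had the nerve exposed for 10 seconds. Neurons were cut from frozen ganglia by laser microdissection, and poly-A RNA (500 ng per preparation) was sequenced on 3 lanes that carried all libraries. No transgene or deletion was named for either group. Nothing in the labels says how many animals or neurons went into a library or whether libraries came from separate animals, and all p-values therefore describe no more than how far these libraries scatter.

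Tissue macrophages recognise, engulf and digest cell debris. Fc receptors, scavenger receptors and integrins bind the particle, an actin cup closes around it, an NADPH oxidase is assembled on the phagosome, and lysosomal proteases degrade the cargo, part of which is loaded on MHC class II molecules with the help of the invariant chain Cd74. Dorsal root ganglia hold resident macrophages close to the neurons and their satellite glia, and macrophages are known to accumulate in these ganglia after injury of the peripheral nerve.

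Expression was given as FPKM, fragments scaled to transcript length and to the number of mapped fragments, and was summed over the isoforms of each gene. Levels and ratios below are on the FPKM scale, and log2 changes are differences of log2(FPKM + 1), crush minus sham, which understate the change of low genes. The read depth of the libraries is unknown. Correlations of log2 values over genes were 0.978 to 0.996 within a group and 0.973 to 0.989 between the groups, so the ranges overlapped. Sham 2 stood furthest from its group, with correlations of 0.978 and 0.981 to sham 1 and sham 3, and 0.981 to crush 3. The number of genes at 1 FPKM or more was 12087 to 12347 per library.

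In 29 of the 38 genes the mean over all libraries reached 1 FPKM, and these entered the fit. Of the 29, 15 were higher after crush, 1 was lower and 13 did not pass (limma, Benjamini-Hochberg adjusted over 12289 genes, threshold 0.05). Over all genes tested 2.38% were called higher and 1.39% lower. The ratio of group means among the 15 higher genes ran from 1.52 to 3.39, and 10 of them were at least 2 times their sham level. The median log2 change of the 29 was 0.63, against -0.02 over all genes tested, and 25 of the 29 changes were positive. All crush values lay above all sham values in 22 of the 29, which held for 12.2% of all genes tested, and all lay below in 2 (Lcp1 and Lgmn), which held for 14.1%. Fcgr2b, Itgam and Cd53 had sham means under 1 FPKM and so entered the fit through their crush values. Among the 26 genes whose sham mean alone reached 1 FPKM, 12 were higher and 1 was lower. The number called higher depended on the libraries in the fit. Leaving out sham 1 gave 6, sham 2 gave 21, sham 3 gave 6, crush 1 gave 4, crush 2 gave 4 and crush 3 gave 7. These counts are of 29 genes tested, or 31 without sham 2 or sham 3. The share of all genes called higher moved as well, to 0.862%, 5.0%, 0.529%, 0.35%, 0.561% and 0.611% in the same order. The median log2 change of the set stayed between 0.56 and 0.69. Mrc1, Laptm5, Ctss and Lyz2 were called higher with any single library left out. With isoforms that carry a reference identifier alone, 3 of 22 genes tested were higher, against 0.614% of all genes tested. In bulk samples such as these, a different number of cells of a type and a different amount of RNA per cell cannot be told apart.

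**Figure D1:**
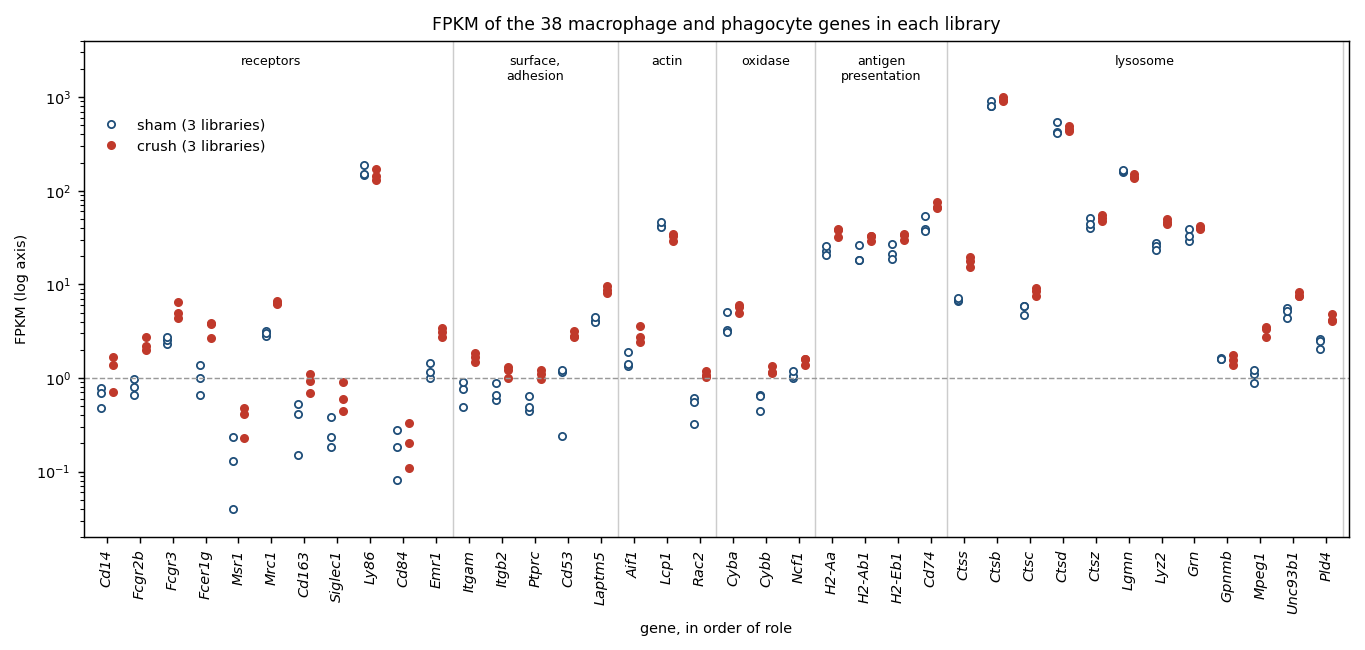
FPKM (log axis) of the 38 macrophage and phagocyte genes in each of the 3 sham libraries (open) and 3 crush libraries (filled), ordered by role, with a dashed line at 1 FPKM. Genes under 10 FPKM mostly show crush points above sham points, whereas Ly86, Ctsb, Ctsd and Lgmn, at 100 FPKM or more, show groups that lie close together.

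Of the 6 tested genes of the role named receptors, which also holds receptor partners, 5 were higher (Mrc1, Emr1, Fcgr2b, Fcgr3 and Fcer1g). The median log2 change of the 6 was 0.87, and 2.38% of all genes tested were higher. Fcgr2b had a sham mean under 1 FPKM and entered the fit only through its crush values. Mrc1, the mannose receptor (mm9 chr2:14151032-14253635, plus strand), was at 3.19, 2.8 and 3.04 FPKM in sham 1 to 3 and at 6.37, 6.13 and 6.64 FPKM in crush 1 to 3. Every crush library was well above every sham library, and the spread within each group was small. The mean rose from 3.01 ± 0.195 to 6.38 ± 0.252 FPKM (SD, n = 3 each), a ratio of 2.12 and a log2 change of 0.88 (SE 0.0724, limma adjusted p = 0.00509, 0.000503 to 0.0899 over the alternatives). Its call was lost with reference isoforms alone, which left 27.0% of its level.

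Emr1, which encodes the macrophage surface antigen F4/80, measured 1.44, 1.0 and 1.17 FPKM in sham 1 to 3 and 3.13, 3.39 and 2.77 FPKM in crush 1 to 3. The groups did not overlap, and the ratio of 2.57 corresponded to a log2 change of 0.89 (SE 0.104, limma adjusted p = 0.0104). The Emr1 call was lost without sham 3, crush 1 or crush 2 (adjusted p up to 0.0703).

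The Fc receptors bind the constant part of antibodies. Fcgr2b, the inhibitory receptor, rose from 0.815 ± 0.168 to 2.31 ± 0.386 FPKM (ratio 2.83, limma adjusted p = 0.0149), and Fcgr3, an activating receptor, from 2.52 ± 0.207 to 5.26 ± 1.04 FPKM (ratio 2.09, limma adjusted p = 0.0224). Fcer1g, the signalling chain that activating Fc receptors share, went from 1.02 ± 0.362 to 3.45 ± 0.672 FPKM (ratio 3.39, limma adjusted p = 0.019). The Fcer1g values are uncertain, since the authors' counting could have divided its reads. The Fcgr2b and Fcgr3 calls were lost when any library other than sham 2 was left out, and that of Fcer1g without sham 1, crush 1 or crush 2.

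Ly86, also called MD-1, the partner of the Toll-like receptor homologue Cd180, was by far the most abundant receptor gene and was not called. It was at 147, 190.3 and 152 FPKM in sham 1 to 3 and at 143, 130.4 and 170.4 FPKM in crush 1 to 3. The groups overlapped, and the log2 change of -0.14 (SE 0.138) did not pass (limma adjusted p = 0.675). Its partner Cd180 was under the filter. The only Ly86 isoform measured was an assembled transcript of 3 exons (388, 53 and 497 bases; mm9 chr13:37468498-37510904, plus strand), whereas the longer Ly86 transcript annotated in GENCODE M21 has 5 exons (367, 87, 129, 53 and 498 bases). Its first exon ended 41523 bases before the start of its last exon in mm9, the distance at which annotated exon 3 ends in GRCm38, but began 41910 bases before it, upstream of the 41651 bases of annotated exon 3. The measured Ly86 level therefore belongs to a transcript that begins closer to its last exon than annotated exons 1 and 2 do.

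The 5 other receptor genes were under the filter of 1 FPKM. Cd163, the haemoglobin scavenger receptor, was at 0.528, 0.149 and 0.416 FPKM in sham and 0.689, 0.939 and 1.11 FPKM in crush libraries, and Siglec1, a sialic acid receptor, at 0.233, 0.185 and 0.385 against 0.903, 0.446 and 0.598 FPKM. For both, every crush value was above every sham value. Cd14, a lipopolysaccharide co-receptor (0.473 to 0.781 in sham, 0.711 to 1.66 FPKM in crush), Msr1, a scavenger receptor (0.04 to 0.235 against 0.231 to 0.474 FPKM), and Cd84 (0.0809 to 0.281 against 0.109 to 0.331 FPKM) had overlapping groups. None of the 5 was called when all genes were tested without a filter.

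All 3 tested genes of the role named leukocyte surface and adhesion were higher, with a median log2 change of 0.91, that of Laptm5. The share over all genes tested was 2.38%. Of the 3, Itgam and Cd53 had sham means under 1 FPKM and entered the fit only through their crush values, which favours genes that rose. Laptm5 was counted in this role although its protein is lysosomal. Laptm5, a lysosomal membrane protein of blood cells, was at 4.03, 3.99 and 4.53 FPKM in sham 1 to 3 and 8.04, 9.69 and 8.64 FPKM in crush 1 to 3. The groups lay far apart relative to their spread: 4.18 ± 0.296 against 8.79 ± 0.836 FPKM, a ratio of 2.1 and a log2 change of 0.91 (SE 0.0882, limma adjusted p = 0.00717, 0.00127 to 0.0548 over the alternatives). Itgam, the alpha chain of complement receptor CR3, rose from 0.755, 0.488 and 0.901 FPKM to 1.49, 1.87 and 1.68 FPKM (ratio 2.35, limma adjusted p = 0.0333). Cd53, a leukocyte tetraspanin, measured 1.16, 0.24 and 1.23 FPKM in sham 1 to 3 and 3.2, 2.83 and 2.71 FPKM in crush 1 to 3. Both genes had non-overlapping groups, and the low Cd53 value was in sham 2. The log2 change of Cd53 was 1.11 (SE 0.225, limma adjusted p = 0.0486), the call closest to the threshold among the higher genes. Cd53 lost its call at smaller pseudocounts and, like Itgam, when any library except sham 2 was left out (adjusted p up to 0.191 for Cd53 and up to 0.136 for Itgam). The other two genes of this role were under the filter: Itgb2, the beta chain that pairs with Itgam (0.587 to 0.887 in sham, 1.01 to 1.32 FPKM in crush), and Ptprc, the leukocyte common antigen CD45 (0.444 to 0.643 against 0.985 to 1.22 FPKM). Their groups did not overlap. The summed FPKM of the 5 genes was 5.75 to 7.8 in sham and 15.1 to 16.6 in crush libraries.

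Of the 2 tested genes of the actin cytoskeleton, 1 was lower and 1 did not pass. Lcp1, the actin-bundling protein L-plastin, was at 42.5, 41.4 and 46.2 FPKM in sham 1 to 3 and 34.7, 32.8 and 29.3 FPKM in crush 1 to 3, so that each crush value was below each sham value. It was the only gene of the set called lower, with a ratio of 0.744 and a log2 change of -0.42 (SE 0.0841, limma adjusted p = 0.048). This call sat at the threshold: it was lost with no filter, with either rescaling of the libraries and without any single library except sham 2 (adjusted p 0.0121 to 0.185 over the alternatives). Aif1, which encodes the actin-binding microglia and macrophage marker Iba1, was at 1.34, 1.9 and 1.4 FPKM in sham and 2.44, 2.77 and 3.6 FPKM in crush libraries. The groups did not overlap, but the log2 change of 0.63 (SE 0.138) did not pass (limma adjusted p = 0.0622, and 0.0175 without sham 2). Aif1 shared 12.8% of its exon bases with Lst1. Rac2, the leukocyte Rac GTPase, was under the filter at 0.325 to 0.618 FPKM in sham and 1.02 to 1.19 FPKM in crush libraries.

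Neither of the 2 oxidase genes tested passed. Cyba, the p22phox membrane subunit, was at 3.28, 5.01 and 3.07 FPKM in sham and 4.92, 5.72 and 6.05 FPKM in crush libraries, and sham 2 overlapped the crush group. Its log2 change was 0.47 (SE 0.159, limma adjusted p = 0.185), and without sham 2 it was called higher (0.65, adjusted p = 0.00835; 0.00835 to 0.44 over the alternatives). Ncf1, the cytosolic p47phox subunit, measured 0.989, 1.06 and 1.19 FPKM against 1.58, 1.58 and 1.37 FPKM, with groups apart and a log2 change of 0.27 (SE 0.0817, limma adjusted p = 0.144). Cybb, the catalytic subunit, was under the filter at 0.443 to 0.665 FPKM in sham and 1.12 to 1.34 FPKM in crush libraries.

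Of the 9 genes under the filter, 6 had every crush value above every sham value (Cd163, Siglec1, Itgb2, Ptprc, Rac2 and Cybb). Among all genes under the filter the share was 11.6%. Their ratios of means ran from 1.18 (Cd84) to 2.75 (Msr1), with a median of 2.1. When all genes were tested without a filter, Ptprc (limma adjusted p = 0.0371), Cybb (0.0374) and Rac2 (0.045) were called higher, where 1.98% of all genes were.

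The 4 antigen presentation genes all had crush values above sham values, and 1 of the 4 passed. Cd74, the invariant chain that guides class II molecules to the endosome, was at 38.9, 53.5 and 37.5 FPKM in sham 1 to 3 and 66.0, 67.3 and 76.4 FPKM in crush 1 to 3. The ratio of means was 1.61 and the log2 change 0.69 (SE 0.144, limma adjusted p = 0.0521). H2-Aa, the class II alpha chain, rose from 22.9, 25.4 and 20.7 FPKM to 37.9, 32.4 and 38.6 FPKM, a log2 change of 0.63 (SE 0.102, limma adjusted p = 0.0258, 0.00355 to 0.125 over the alternatives). For each of the 4 genes sham 2 was the highest sham library. H2-Ab1 (20.8 ± 4.7 against 31.5 ± 2.39 FPKM, adjusted p = 0.0916) and H2-Eb1 (22.2 ± 4.43 against 32.3 ± 2.5 FPKM, adjusted p = 0.0967), the beta chains, did not pass with limma. Without sham 2 all 4 were called higher, with adjusted p of 0.00654 for H2-Aa, 0.00323 for H2-Ab1, 0.00584 for H2-Eb1 and 0.00264 for Cd74. The H2-Aa call was lost when any other library was left out. Their summed FPKM was 94.6 to 132 in sham and 158 to 182 in crush libraries, a ratio of 1.55.

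Class II promoters are known for an X-Y module near the start site, and both class II promoters of this set that were matched, H2-Aa and H2-Eb1, held the Y box letters TGATTGG (searched on both strands). They are shown because these neighbouring genes on chromosome 17 had like ratios, 1.57 for H2-Aa and 1.46 for H2-Eb1. Both sequences run from 250 bases before to 50 after the start site, from RefSeq (GRCm38.p6), with the match in capitals. That of H2-Aa (chr17:34287774-34288073, minus strand) has the match starting 50 bases before the start site, and that of H2-Eb1 (chr17:34305617-34305916, plus strand) 61 bases before it.
H2-Aa: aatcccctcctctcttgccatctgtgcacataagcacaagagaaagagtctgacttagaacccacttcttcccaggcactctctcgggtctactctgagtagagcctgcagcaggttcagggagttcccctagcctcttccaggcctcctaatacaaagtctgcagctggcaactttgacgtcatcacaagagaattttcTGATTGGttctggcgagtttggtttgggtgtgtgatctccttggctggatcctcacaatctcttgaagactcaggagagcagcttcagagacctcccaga
H2-Eb1: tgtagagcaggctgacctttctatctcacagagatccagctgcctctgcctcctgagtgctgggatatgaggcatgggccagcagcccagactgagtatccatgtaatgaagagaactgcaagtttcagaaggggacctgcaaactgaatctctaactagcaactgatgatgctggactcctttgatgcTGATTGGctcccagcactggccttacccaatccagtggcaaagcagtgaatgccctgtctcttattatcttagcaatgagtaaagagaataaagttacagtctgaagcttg
These letters were found in the promoters of 2 of 28 measured genes of the set that had a promoter sequence (7.14%) and in 9.0% of the promoters of all 27025 genes.

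Of the 12 lysosomal genes tested, 6 were higher (Ctss, Lyz2, Mpeg1, Pld4, Unc93b1 and Ctsc), none was lower and 6 did not pass (2 at unadjusted p under 0.05, of which Grn was above and Lgmn below sham). Ctss, the cysteine protease cathepsin S that trims the invariant chain in antigen-presenting cells (mm9 chr3:95330537-95360328, plus strand), was at 6.56, 6.74 and 7.15 FPKM in sham 1 to 3 and 19.8, 15.4 and 17.6 FPKM in crush 1 to 3. The lowest crush value was more than 2 times the highest sham value. The mean rose from 6.82 ± 0.305 to 17.6 ± 2.22 FPKM, a ratio of 2.58 and a log2 change of 1.24 (SE 0.0985, limma adjusted p = 0.00509). It was the only gene of the set whose call held in every alternative that was run (17 of 17, adjusted p 0.000835 to 0.0434).

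Lyz2, the macrophage lysozyme, measured 27.5, 25.9 and 23.5 FPKM in sham and 43.7, 46.7 and 50.1 FPKM in crush libraries. Its groups lay well apart, with a ratio of 1.83 and a log2 change of 0.85 (SE 0.0848, limma adjusted p = 0.00717, 0.00111 to 0.0653 over the alternatives). Lyz1 is a near-identical copy, so the assignment of reads to Lyz2 is uncertain. Mpeg1, a pore-forming protein of phagocytes, rose from 1.07 ± 0.179 to 3.18 ± 0.395 FPKM (ratio 2.98, limma adjusted p = 0.00805), and its call was lost without crush 1 or crush 2 (adjusted p = 0.0602 and 0.0507, 0.000714 to 0.0628 over the alternatives).

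Pld4, an exonuclease of endolysosomes (2.37 ± 0.296 against 4.38 ± 0.431 FPKM, limma adjusted p = 0.0191), and Unc93b1, which carries nucleic acid-sensing Toll-like receptors to them (5.03 ± 0.6 against 7.74 ± 0.474 FPKM, 0.0329), were also higher. Ctsc, which activates serine proteases of granules, rose from 5.52 ± 0.658 to 8.39 ± 0.759 FPKM (limma adjusted p = 0.0431). These 3 had ratios of 1.85, 1.54 and 1.52 and lost their calls when any library other than sham 2 was left out.

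The abundant proteases were not called. Ctsb, cathepsin B, was at 795, 898 and 811 FPKM in sham 1 to 3 and 926, 914 and 995 FPKM in crush 1 to 3 (log2 change 0.18, SE 0.0973, limma adjusted p = 0.408). Ctsd, cathepsin D, was at 419, 536 and 418 FPKM in sham and 454, 435 and 491 FPKM in crush libraries (log2 change 0.02, SE 0.123, adjusted p = 0.967). The Ctsb groups did not overlap although the change was small, and those of Ctsd did, with sham 2 above every crush library. Lgmn, the asparaginyl protease legumain (163 ± 4.54 against 144 ± 7.07 FPKM, adjusted p = 0.242), Ctsz, cathepsin Z (45.0 ± 5.39 against 51.4 ± 4.18 FPKM, 0.412), Grn, progranulin (33.5 ± 4.79 against 40.3 ± 1.1 FPKM, 0.249), and Gpnmb, a lysosomal membrane glycoprotein (1.6 ± 0.0218 against 1.57 ± 0.202 FPKM, 0.928), did not pass with limma. Grn was called higher without sham 2 (adjusted p = 0.0153). Ctsb shared 37.4% of its exon bases with Fdft1 and Ctsz 26.4% with Th1l, each on the opposite strand, and nothing in the labels says that strand was kept.

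Promoter letters of known regulators were counted as a description. On either strand GAGGAAG, the core of the site bound by the myeloid factor PU.1, was found in 8 of the 28 promoters (28.6%; Cd53, Ctsc, Ctss, Fcgr3, Itgam, Laptm5, Mrc1 and Pld4) and in 15.4% of the promoters of all genes. All 8 belong to the 13 higher genes with a promoter sequence. Likewise TCACGTG, the E box bound by the lysosomal regulator TFEB, was found in Ctsd and Lgmn (7.14%) and in 4.29% of all promoters, and neither gene was called. A match shows only that the letters are present. The promoters of Ctss (chr3:95526536-95526835, plus strand), Laptm5 (chr4:130913066-130913365, plus strand) and Ctsd (chr7:142387778-142388077, minus strand) are given from RefSeq (GRCm38.p6) for comparison of 2 genes that rose with 1 that was not called, with matches in capitals.
Ctss: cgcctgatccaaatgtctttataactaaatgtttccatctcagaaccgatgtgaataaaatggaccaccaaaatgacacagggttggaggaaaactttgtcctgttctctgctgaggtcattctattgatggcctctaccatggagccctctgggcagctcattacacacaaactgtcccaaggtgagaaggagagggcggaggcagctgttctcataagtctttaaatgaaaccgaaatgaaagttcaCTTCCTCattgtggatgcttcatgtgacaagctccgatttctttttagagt
Laptm5: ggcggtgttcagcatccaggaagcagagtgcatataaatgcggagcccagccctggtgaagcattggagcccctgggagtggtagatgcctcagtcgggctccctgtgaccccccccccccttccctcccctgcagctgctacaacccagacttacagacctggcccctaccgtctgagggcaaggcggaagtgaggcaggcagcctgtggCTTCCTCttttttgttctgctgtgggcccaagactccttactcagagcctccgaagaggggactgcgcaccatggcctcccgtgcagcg
Ctsd: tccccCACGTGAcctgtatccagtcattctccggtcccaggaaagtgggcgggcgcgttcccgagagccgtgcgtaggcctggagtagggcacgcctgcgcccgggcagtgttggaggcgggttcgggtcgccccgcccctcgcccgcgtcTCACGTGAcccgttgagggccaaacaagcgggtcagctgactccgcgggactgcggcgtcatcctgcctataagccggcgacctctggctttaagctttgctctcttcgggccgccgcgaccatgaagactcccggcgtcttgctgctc
The match starts 1 base before the start site in Ctss and 39 bases before it in Laptm5. In Ctsd the capitals mark a palindromic site, whose overlapping matches on both strands start 99 and 98 bases before the start site, and a further match 245 bases before it.

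The change of the genes differed with their level, as the plot of log2 change against mean FPKM shows. Of the 16 tested genes with a mean of 1 to 10 FPKM, 12 were higher, with a median ratio of 2.1 (0.979 to 3.39). The means use all 6 libraries, which favours rising genes at the lower edge. Of the 12, Fcgr2b, Itgam and Cd53 reached 1 FPKM only through their crush values. With the filter ignored, the 25 genes under 10 FPKM also had a median ratio of 2.1. Over all tested genes of that level 2.6% were higher and the median ratio was 1.0. Of the 9 genes at 10 to 100 FPKM, 3 were higher and 1 was lower, with a median ratio of 1.51 (0.744 to 2.58), against 2.18% higher and a median of 0.971 over all genes of that level. None of the 4 genes at 100 FPKM or more (Ctsb, Ctsd, Lgmn and Ly86) was called, and their ratios ran from 0.879 to 1.13 with a median of 0.956, near the 0.949 of all genes of that level. Summed over the 25 genes under 10 FPKM, expression was 39.0 to 41.6 FPKM in sham and 74.8 to 80.2 FPKM in crush libraries, a ratio of 1.92. The sum of the 4 most abundant genes was 1520 to 1787 FPKM in sham and 1618 to 1807 FPKM in crush libraries. All 38 genes together summed to 1807 to 2122 FPKM in sham and 2039 to 2264 FPKM in crush libraries. These groups overlapped, with a ratio of 1.11.

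**Figure D2:**
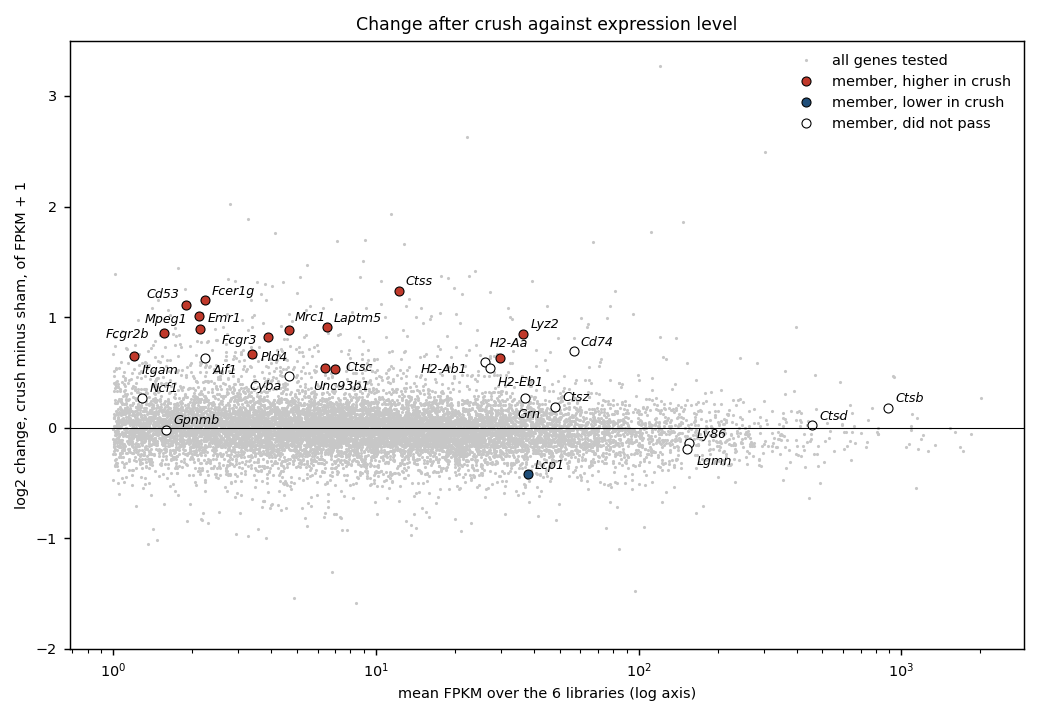
Difference of log2(FPKM + 1), crush minus sham, against the mean FPKM over the 6 libraries (log axis) for all genes tested (grey), with the 29 macrophage and phagocyte genes marked as higher (red, 15), lower (blue, Lcp1) or not passed (open). The higher genes lie between 1 and 100 FPKM, and the 4 genes at 100 FPKM or more lie near 0.

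The spread within a group differed between libraries. Among the crush libraries, crush 3 was the highest for 19 of the 29 genes, with a median difference of 0.12 (log2) from the other libraries of its group, against 0.02 over all genes. The sham libraries showed no such lean: sham 2 was the highest of its group for 14 of the 29 genes and the lowest for 10, and the median differences were -0.07 to 0.03. Given a weight by its distance from the fit, sham 2 received the lowest weight, 0.162. With sham 2 left out all 15 higher genes were called again.

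At the level of single isoforms none of the 43 tested isoforms of 27 genes passed in limma (0 higher, 0 lower; 24 higher and 1 lower at unadjusted p under 0.05), where 0.0531% of all 24485 isoforms tested were called higher and 0.00817% lower. The main Ctss isoform, 75.0% of the gene's FPKM, was at 4.45, 5.14 and 5.27 FPKM in sham and 15.7, 11.1 and 13.3 FPKM in crush libraries, with groups far apart (log2 change 1.26, limma adjusted p = 0.0715). The other main Ctss isoform, 23.3% of the gene, had a log2 change of 0.94, so both went the same way. Of Mrc1, 73.0% came from an assembled isoform and 27.0% from the reference isoform, with log2 changes of 0.78 and 0.69. For Laptm5 the division between its 3 assembled isoforms varied from library to library, while their sum was steady within each group.

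In the authors' deposited table, which compares pooled group estimates of each isoform, 59 of the 92 isoforms of the set were compared (status OK), and of these 32 were significant and higher after crush and 0 were lower. They belong to 23 genes, and in the authors' deposited table, over all isoforms of status OK, 8.26% were higher and 6.84% lower. In the authors' deposited table the class II genes, which limma mostly did not call, were significant: H2-Aa at a log2 of 0.78 (q = 1.36e-11), H2-Ab1 at 0.86 (q = 7.12e-13) and H2-Eb1 at 0.82 (q = 4.6e-12). Aif1 (main isoform, log2 1.38, q = 0.00155) and Cyba (log2 0.85, q = 0.000532) were significant in the authors' deposited table as well, and Ly86 (log2 0.03, q = 0.902) and Ctsd (log2 0.20, q = 0.215) were not. For 7 genes (Fcer1g, Lyz2, Lgmn, Ctsb, Lcp1, Laptm5 and Cybb) the authors' deposited table holds the status FAIL for every isoform, and so no comparison. Lcp1, the gene called lower by limma, is one of them.

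Other genes known from phagocytes were examined in a list of their own. Of 67 listed, 63 were matched and 34 tested: 16 were higher, 1 was lower and 17 did not pass. Their median log2 change was 0.53. Over all genes tested 2.38% were higher and 1.39% lower. Of the 16, Cx3cr1, F13a1, Inpp5d, Fyb and Nckap1l had sham means under 1 FPKM and so entered the fit through their crush values. Without a filter 26 of the 63 were higher, where 1.98% of all genes were. C1qc, a chain of complement C1q, was at 8.64, 10.4 and 8.68 FPKM in sham and 19.6, 20.5 and 21.6 FPKM in crush libraries (log2 change 1.08, limma adjusted p = 0.00509). Csf1r, the receptor that macrophages need for survival (1.05), and Tyrobp, a signalling adaptor (0.82), both had a limma adjusted p of 0.00717. Gas6, a bridge between dying cells and phagocyte receptors, fell from 71.0 ± 3.76 to 53.2 ± 3.92 FPKM (limma adjusted p = 0.0431). Csf1, the ligand of Csf1r, was the 1 gene called among 18 tested growth factors and attractants of macrophages: it was at 14.5, 11.0 and 11.0 FPKM in sham and 30.8, 29.9 and 38.6 FPKM in crush libraries (ratio 2.72, log2 change 1.37, limma adjusted p = 0.00717).

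Few further lysosomal and antigen presentation genes passed, where 2.38% of all genes tested were higher and 1.39% lower. For lists of this size the counts below are close to those shares. Of 48 other lysosomal genes tested, 1 was higher (Ctsh, cathepsin H, 3.8 ± 0.789 against 6.63 ± 0.195 FPKM, limma adjusted p = 0.0335), 1 was lower (Ppt1, a palmitoyl thioesterase, 22.9 ± 0.193 against 18.6 ± 0.318 FPKM, 0.0413) and 46 did not pass, with a median log2 change of -0.00. None of the 7 other antigen presentation genes passed in limma, of which H2-DMb2 had the smallest adjusted p, 0.0786. Without a filter 1 of 12 was higher, where 1.98% of all genes were. This was Cd86, a co-stimulatory ligand (0.176 ± 0.0216 against 0.49 ± 0.0749 FPKM, limma adjusted p = 0.0424).

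Markers of other cell types were measured in the same libraries, and their part in the results was not tested. The neuronal list summed to 8708 to 10864 FPKM in sham and 8749 to 10007 FPKM in crush libraries, led by Tubb3, with 0 of 18 higher and 2 lower (Nefh, adjusted p = 0.0147, and Nefm, 0.0486, the latter not without a filter). Satellite glia and Schwann cell markers were present as well, at 1983 to 2217 FPKM in sham and 1986 to 2118 FPKM in crush libraries, with 0 of 20 called (smallest adjusted p 0.0958, Prx; most abundant Pmp22). Fibroblast markers summed to 131 to 172 against 199 to 211 FPKM, without overlap, and 0 of 8 were called (Lum, 0.0961; most abundant Dcn). Endothelial and pericyte markers (0 of 14 called; Vwf, 0.467; most abundant Rgs5) summed to 90.6 to 99.9 against 86.6 to 101 FPKM. Genes of haemoglobin and red cells (0 of 2 called, Hba-a2 and Hbb-b1, 0.819) ran from 107 to 168 against 98.1 to 220.5 FPKM.

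Lists of other blood cells were mostly low. The 4 matched T and NK cell genes, all under the filter, summed to 1.19 to 1.5 FPKM in sham and 1.52 to 1.89 FPKM in crush libraries, Lck being the most abundant, and the 12 others were not analysed here. Of the B and plasma cell list only Sdc1, which other cell types also express, was tested (21.9 ± 1.79 against 44.1 ± 1.9 FPKM, limma adjusted p = 0.00509), while Cd79a, Cd79b, Blnk and Igj were under the filter. Of the 4 tested genes of the neutrophil list, Ly6g alone was higher (0.532 ± 0.178 against 2.42 ± 0.614 FPKM, limma adjusted p = 0.0148). Its sham mean was under 1 FPKM, so it entered the fit only through its crush values. The most abundant neutrophil gene, S100a8, was at 9.53, 4.37 and 15.5 FPKM in sham and 4.44, 7.0 and 2.96 FPKM in crush libraries. S100a8 did not pass (limma adjusted p = 0.399). Mast cell genes had a ratio of summed FPKM of 1.08, crush over sham, but most of this sum was Kit. Kit was at 19.4 ± 1.58 against 20.2 ± 1.12 FPKM (limma adjusted p = 0.807). The other mast cell genes matched, Cpa3, Cma1, Mcpt4, Tpsb2 and Hdc, were under the filter, with ratios of 1.27 to 1.77. Of these only Hdc had groups apart. In the microglial list, which shares much with macrophages, Fcrls rose from 2.62 ± 0.363 to 7.4 ± 0.607 FPKM (limma adjusted p = 0.00509), while P2ry12 (2.63 ± 0.712 against 2.93 ± 0.462 FPKM) and the most abundant, Sparc, did not pass. When all genes were tested without a filter, Blnk (0.573 ± 0.0302 against 1.04 ± 0.0598 FPKM, limma adjusted p = 0.0366), Csf3r of the neutrophil list (0.231 ± 0.0966 against 0.681 ± 0.106 FPKM, 0.0424) and Tmem119 of the microglial list (0.38 ± 0.0858 against 1.56 ± 0.241 FPKM, 0.0087) were called higher as well, and no T, NK or mast cell gene was. None of the 5 tested cell division genes passed (Pcna, 0.543), and Mki67 was at 0.0656 ± 0.0633 FPKM in sham and 0.0502 ± 0.026 FPKM in crush libraries.

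**Figure D3:**
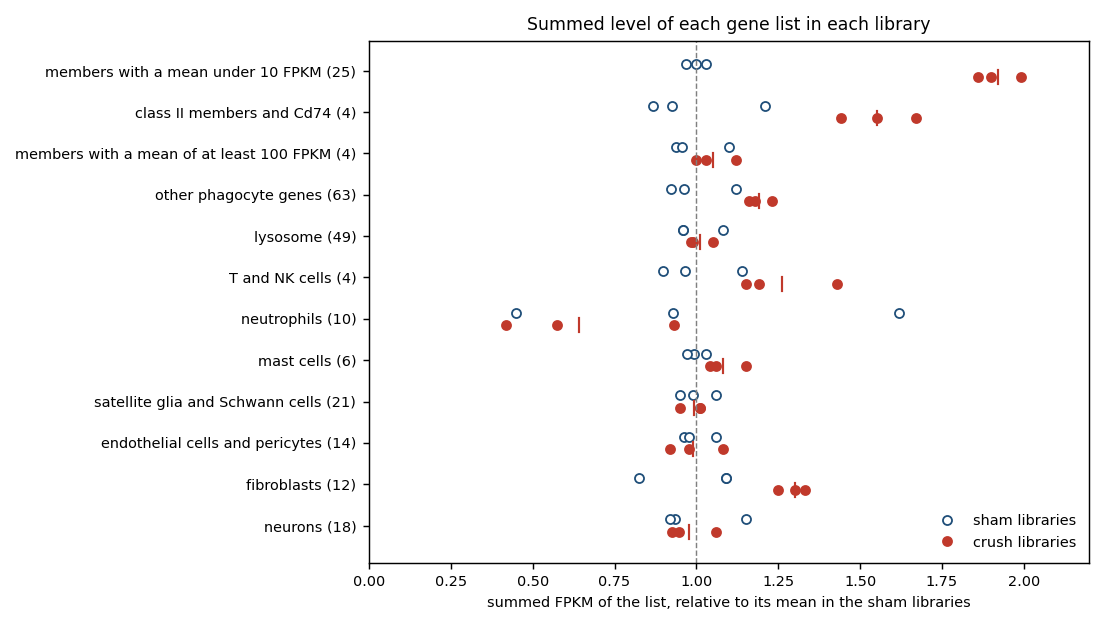
Summed FPKM of a selection of the gene lists in each library, divided by the list's mean in the sham libraries (sham open, crush filled, crush mean as a bar, number of genes in parentheses). The set is drawn in parts chosen by level or role, and Lcp1, Ctss, Ctsz, Lyz2 and Grn are in none of them. The other lists drawn are summed whole. Lists not drawn had these ratios of summed FPKM, crush over sham: B and plasma cells 1.99 (led by Sdc1), red blood cells 1.2, oxidase 1.09, cell division 1.08, antigen presentation 1.05, microglia 1.04, macrophage growth factors and attractants 0.911. The 25 genes of the set under 10 FPKM sit at 1.86 to 1.99 in crush libraries, and its 4 genes of at least 100 FPKM at 1.0 to 1.12. The fibroblast list sits at 1.25 to 1.33 and the other phagocyte genes at 1.16 to 1.23, while the neuronal and glial lists lie near 1. Over all 38 genes of the set the ratio of summed FPKM was 1.11, with overlapping groups.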

How the data were processed

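FPKM per isoform and library were deposited by the authors, with a comparison of pooled groups that gives a p-value, a q-value and a log2 fold change per isoform. The submitters' processing notes name build mm9 and, as tools, Cuffdiff 1.2.1, Cufflinks 1.1.0 and TopHat 1.3.2. Read depth cannot be had from FPKM. The authors also deposited interval bounds of FPKM for each isoform and library, which were not used in the fit. The median half-width of these intervals was 55.3% of the FPKM for Fcer1g, 32.2% for Mpeg1 and 23.2% for the abundant Ctsd, each measured as a single isoform. Whether the counting used strand is not given in the sources used here.

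Isoform FPKM of the 60744 isoforms were summed per gene name. Where the mean of all 6 libraries reached 1 FPKM, log2(FPKM + 1) values were fitted in limma 3.58.1 (moderated variance with a trend, 2-sided) in R 4.3.3, adjusted by Benjamini-Hochberg over all genes tested, threshold 0.05. The procedure was tested on simulated data. Figures were drawn with matplotlib 3.10.9 and tables made with numpy 2.4.6 and pandas 2.3.3 (Python 3.11.15). Positions and exon overlaps came from the authors' mm9 transcripts, promoters from RefSeq (GRCm38.p6, 29 of the 39 genes matched) and Ly86 exons from GENCODE M21 (GRCm38). The builds were not mixed: only distances within each were compared.

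The 39 genes are a list of names whose rule uses no measured value, but both they and the comparison lists were chosen with earlier results of these data known, so their counts are descriptions and not independent evidence. In each role the 2 most abundant genes and the 2 of smallest adjusted p were given with every library's value, and in each other list the 2 called genes of smallest adjusted p in each direction (3 where tied), or the gene of smallest adjusted p, and for other cell types the most abundant gene. Genes under the filter and overlapping neighbours were added to this, and some items are not reported here. Alternatives changed the pseudocount, filter, scaling, isoforms summed, sample weights, replicate block and libraries.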

Additional observations from a re-analysis of the deposited data

How the results depend on the processing

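Of the 15 higher genes and 1 lower gene of the set, and the 293 higher and 171 lower of all genes, several counts moved, and the cause was not tested unless fewer genes or libraries entered. With a mean of at least 5 FPKM, 165 genes were higher, and of the set 6 were higher and 0 lower among 16 tested. Without a filter the set's lower count was 0 and its median log2 change 0.51, against 0.63. Upper-quartile scaling and quantile normalization gave 0 lower. Reference isoforms alone gave 52 higher and 15 lower genes, and in the set 3 higher and 0 lower. Sample weights gave 734 higher and 695 lower genes. Leaving out sham 2 and crush 3 together gave 759 higher and 848 lower, and 2 lower in the set. Leaving out each library in turn gave 43 to 615 higher and 10 to 565 lower genes, and in the set 4 to 21 higher and 0 to 1 lower. The replicate block gave 45 higher and 5 lower genes, and in the set 2 higher and 0 lower. Replicate numbers share no stated animal or batch. The deviations of same-numbered libraries correlated at 0.372, -0.309 and -0.486, and those of differently numbered ones at -0.529 to 0.59. With 3 libraries per group such correlations cannot show whether same-numbered libraries were paired, and pairing was not tested.

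Over the log2 changes of single genes of the set, 359 alternative values kept direction and side of the threshold, 83 kept direction but no longer passed, 24 newly passed and 7 turned direction. The last were Gpnmb (0.01 with upper-quartile scaling, 0.01 with sample weights, 0.03 without crush 3 and 0.03 without sham 2 and crush 3) and Ctsd (-0.04 without sham 1, -0.04 without sham 3 and -0.03 without crush 3). Over single libraries left out, the change ran from -0.04 to 0.13 for Ctsd and from -0.08 to 0.03 for Gpnmb. Scaling moved the median of all genes from -0.02 to 0.02 at most. Depth is unknown and the deposited intervals were not used in the fit. For genes near 1 FPKM counting error was therefore not separated from the spread of 3 libraries.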
